A study of Mus musculus with 7 samples.

Results

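The transcripts described here are those of 8 genes grouped here as immune complex receptors, which bind complement fragments or antibodies, regulate complement or signal for such receptors: Cr2, Cr1l, Fcer2a, Fcgr2b, Fcgr3, Fcamr, Fcgrt and Fcer1g. They were picked by gene symbol, and all 8 were among the 21176 genes of the deposited expression table. The RNA came from follicular dendritic cells (FDCs), which are stromal cells in B-cell follicles. They were isolated by fluorescence-activated sorting from the popliteal nodes of non-immunized male mice aged 8 to 12 weeks. The groups were wild type (WT, 4 samples) and Ngfr KO (3 samples), which lack Ngfr, the gene of the p75 neurotrophin receptor. Throughout, errors after ± are SDs over those 4 or 3 samples. Every sample pooled nodes from several mice. The labels give neither the strain nor the kind of Ngfr allele, and the loss is not described as limited to FDCs, so other cells of the node may lack the gene as well.

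FDCs keep antigen on their surface for long periods, and B cells of the germinal centre collect it from them. Most of that antigen is held as immune complexes, by complement receptors that bind C3 fragments and by Fc receptors that bind the constant part of antibodies. In the same node, B cells also carry Cr2, Fcer2a and Fcgr2b, and macrophages and other myeloid cells carry Fcgr3 and Fcer1g, so the markers of those cells are given beside the receptors.

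The libraries held 17244925 to 18873542 reads in WT and 20741770 to 21538400 in Ngfr KO, so every Ngfr KO library was deeper. With all reads thinned to the smallest library, 4 members were called, as without thinning, against 34.2% of all tested genes. Values are on the authors' TMM scale (reads times 1 factor per library), on which a value of 1 is worth 230 to 295 reads. The targeted gene, Ngfr, had 97, 181, 298 and 298 reads in the WT libraries and 84, 104 and 46 in the Ngfr KO libraries. These reads overlapped between the groups, while the TMM values did not (0.377 to 1.30 in WT, 0.184 to 0.353 in Ngfr KO). The edgeR log2 change of Ngfr was -1.55 (edgeR adjusted p = 0.0574). Ngfr failed the filter on low values of the main comparison. Limma on log2(value + 1) gave -0.52, with adjusted p = 0.0431 where Ngfr was added to the tested genes and 0.122 with no filter. Reads remained in every Ngfr KO library, and gene values do not show which exons they cover. The FDC markers Cxcl13, Clu, Mfge8, Madcam1 and Vcam1 were present in all 7 libraries. The values of 18 FDC genes summed to 1842 to 5193 per WT library and 8055 to 10619 per Ngfr KO library. Those of 12 endothelial genes summed to 144 to 249 and to 42.5 to 78.8. The libraries therefore also held endothelial RNA, and both lists moved with genotype. The 12 genes of a reticular stroma list moved as well, with sums of 97.5 to 231 and of 259 to 372, and 4 of the 9 tested were called higher. Of the tested genes, 15 of 18 FDC genes were called higher and 11 of 11 endothelial genes lower. In such bulk samples, more cells of a type and more RNA per cell cannot be told apart.

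Transcripts of 4 receptors rose in Ngfr KO. These were Fcer2a (9.61-fold by the ratio of group means), Fcamr (14.2-fold), Fcgr2b (4.40-fold) and Cr2 (2.01-fold). Cr1l, Fcgrt and Fcer1g were tested and not called, and Fcgr3 was too low for the test. Of the 7 tested members, 4 were called, all higher (limma, Benjamini-Hochberg adjusted p under 0.05), against 34.2% of the 8326 genes tested, 18.3% higher and 15.8% lower. The groups did not overlap in 5 of the 7, higher in 4 and lower in Fcgrt, against 40.9% of all tested genes. Fcamr is in both counts, but it passed the filter (a value of at least 1 in 3 or more samples) only through its Ngfr KO samples. Its WT values were 0.140 to 1.93. With edgeR on the recovered reads the same 4 of 8 members were called higher, against 15.2% of 16751 genes called and 8.67% called higher. The median log2 change of the 7 tested members was 1.09, and that of all tested genes 0.02.

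**Figure D1:**
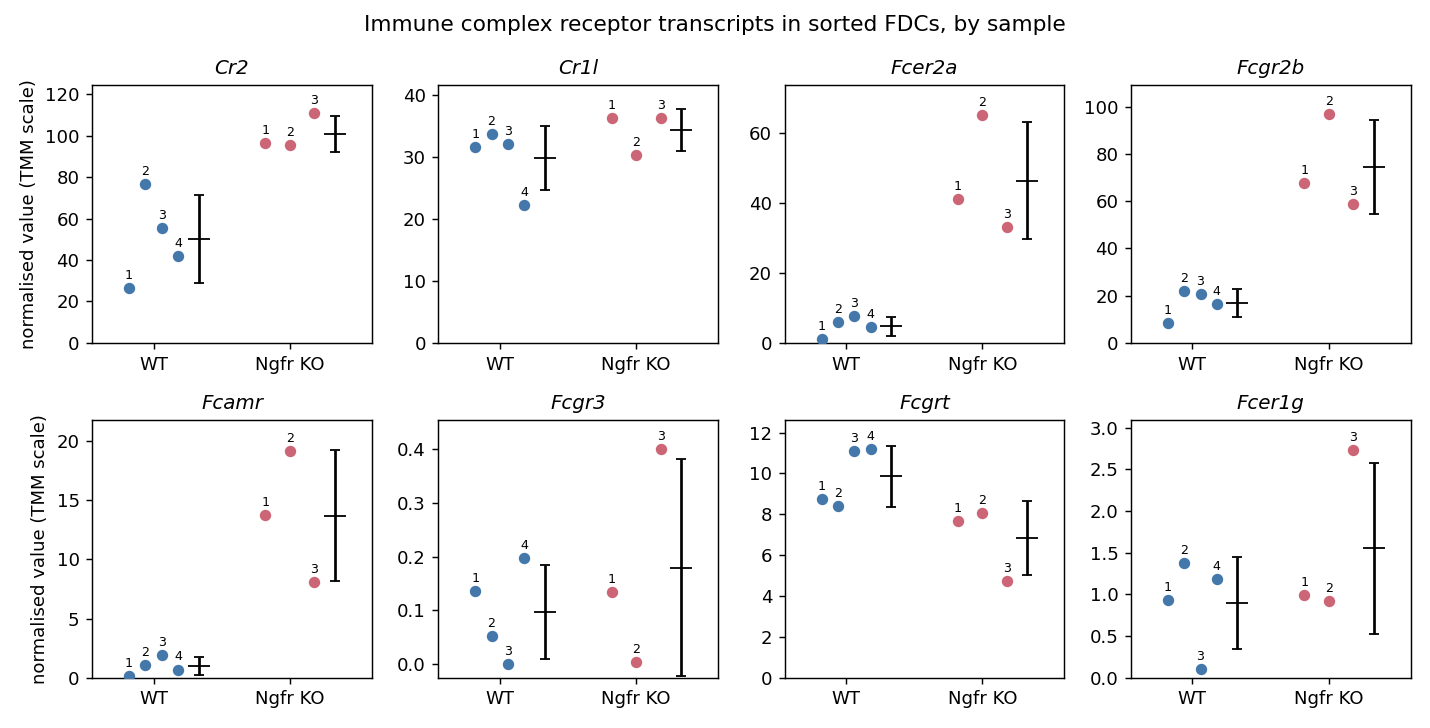
Normalised value (TMM scale, vertical axis, each panel with its own range) of the 8 receptor transcripts in 4 WT and 3 Ngfr KO samples; points are samples with their replicate number, and the dash with bars is the mean ± SD. All Ngfr KO points of Cr2, Fcer2a, Fcgr2b and Fcamr lie above all WT points, those of Fcgrt lie below, and those of Cr1l, Fcgr3 and Fcer1g overlap with WT.

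Cr2 (ENSMUSG00000026616, chromosome 1, 195136811 to 195176716, minus strand, in GENCODE M21 on GRCm38) encodes both CD21 and the longer form CD35, which bind C3 fragments. Its values were 26.5, 76.6, 55.6 and 42.0 in WT replicates 1 to 4 and 96.7, 95.5 and 111 in Ngfr KO replicates 1 to 3. WT samples were spread 2.90-fold and Ngfr KO samples 1.16-fold, and the lowest Ngfr KO sample stood above the highest WT sample. The means were 50.2 ± 21.3 and 101.1 ± 8.7. On the log2(value + 1) scale the change was 1.09 (SE 0.30, limma adjusted p = 0.0168). Among the called members Cr2 was the one whose call was lost in some fits: the limma adjusted p was 0.0784 with no filter on low values, 0.104 with the mean of a B-cell list as a covariate and 0.103 with that of a myeloid list, and in the other 17 fits the adjusted p was between 0.00565 (DESeq2) and 0.0434 (limma without Ngfr KO replicate 1).

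Cr1l (ENSMUSG00000016481, chromosome 1, 195097382 to 195131586, minus strand) is the next gene to Cr2, 5225 bases away, and encodes Crry, a membrane protein that limits complement activation on the cell's own surface. Its values were 31.6, 33.7, 32.1 and 22.3 in WT and 36.4, 30.4 and 36.3 in Ngfr KO. The groups overlapped, and only WT replicate 4 lay apart from the rest, on the low side. On the log2 scale the difference was 0.21 (SE 0.20, limma adjusted p = 0.433), with a 95% interval of -0.22 to 0.64 that excludes a doubling. Without WT replicate 4 it was 0.08 (limma adjusted p = 0.781). No window of 50 bases in the coding sequence of Cr2 occurs in that of Cr1l, where the longest shared run is 22 bases.

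Fcer2a (ENSMUSG00000005540, chromosome 8, 3681737 to 3694175, minus strand) encodes CD23, the low-affinity receptor for IgE. Its reads numbered 312, 1587, 1753 and 1198 in the WT libraries, against 11341, 19219 and 8257 in Ngfr KO. The values were 1.21, 5.94, 7.62 and 4.57 in WT and 41.1, 65.2 and 33.1 in Ngfr KO. WT replicate 1 was far below the other WT samples, and the lowest Ngfr KO value was more than 4 times the highest WT value. On the log2 scale Fcer2a rose by 3.13 (SE 0.39, limma adjusted p = 3.57e-04). Without WT replicate 1 it rose by 2.72 (SE 0.26, limma adjusted p = 1.60e-04).

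Fcamr (ENSMUSG00000026415, chromosome 1, 130800902 to 130814740, plus strand) encodes a receptor for IgM and IgA that FDCs are known to carry. Its reads numbered 36, 295, 443 and 181 in the WT libraries, against 3802, 5661 and 2022 in Ngfr KO. Values were 0.140, 1.104, 1.93 and 0.690 in WT and 13.8, 19.2 and 8.10 in Ngfr KO. All Ngfr KO samples were above all WT samples, and WT replicate 1 was again the lowest. Fcamr rose by 2.91 on the log2(value + 1) scale (SE 0.31, limma adjusted p = 2.25e-04). That scale understates a transcript this low in WT, and the edgeR log2 change was 3.91 (SE 0.66, edgeR adjusted p = 0.00655).

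Fcgr2b (ENSMUSG00000026656, chromosome 1, 170958617 to 170976547, minus strand) encodes the inhibitory receptor for IgG, the main IgG Fc receptor of FDCs. Values were 8.51, 22.2, 20.6 and 16.3 in WT and 67.6, 96.8 and 58.8 in Ngfr KO, with no overlap. The means were 16.9 ± 6.1 and 74.4 ± 19.8, and Fcgr2b rose by 2.12 on the log2 scale (SE 0.30, limma adjusted p = 6.17e-04). Fcer2a and Fcgr2b were called under all 20 alternative fits and Fcamr under all 19 that could test it. In the fit with the stricter filter (at least 10), Fcer2a passed only through its Ngfr KO samples, since its WT values were at most 7.62.

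**Figure D2:**
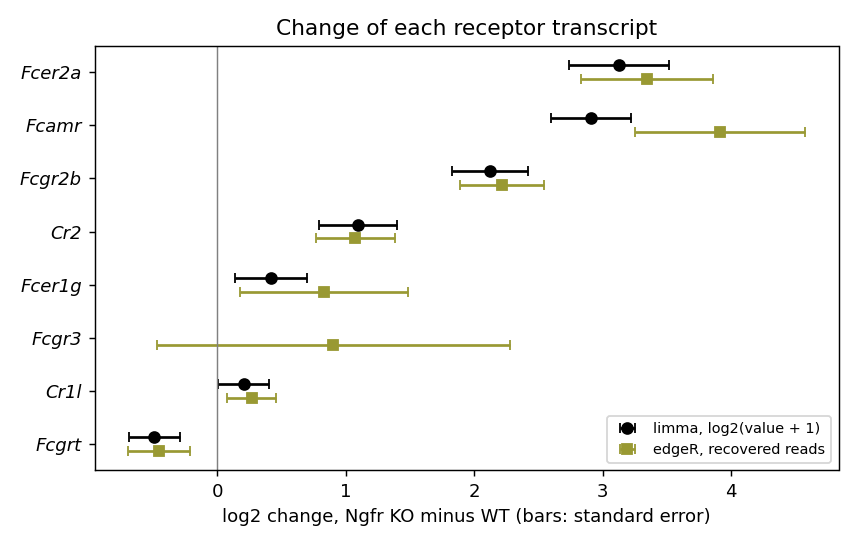
Log2 change of each receptor transcript, Ngfr KO minus WT (horizontal axis), with bars of 1 standard error; circles are limma on log2(value + 1) and squares edgeR on recovered reads. The 4 called receptors lie at 1.09 or above in limma, the other limma values lie between -0.49 and 0.41, and Fcgr3 has an edgeR value only.

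Fcgr3 (ENSMUSG00000059498, chromosome 1, 171051174 to 171064935, minus strand) encodes an activating IgG receptor of myeloid and natural killer cells. It had 35, 14, 0 and 52 reads in WT and 37, 1 and 100 reads in Ngfr KO, so it failed the filter on low values. The count of 0 in WT replicate 3 allows a value of up to 0.0130 (3 reads, counting error only). The groups overlapped, and the edgeR log2 change was 0.90 with a SE of 1.38 (edgeR adjusted p = 0.700), so no difference was detectable at this depth. Part of the coding sequence of Fcgr3 is identical to Fcgr2b: of its 752 windows of 50 bases, 166 (22.1%) also occur in Fcgr2b, and none in Fcgr4. The longest run that both genes share is given here because reads from it cannot be assigned to 1 of the 2 genes by sequence. It covers coding bases 263 to 391 of Fcgr3 (GENCODE M21 transcripts, plus sense).
Fcgr3 and Fcgr2b, shared run: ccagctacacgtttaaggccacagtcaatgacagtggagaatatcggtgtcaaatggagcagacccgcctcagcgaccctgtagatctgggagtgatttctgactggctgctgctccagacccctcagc
How the authors' counting treated such reads is not given in the sources used here. In every library Fcgr3 had at most 100 reads, against 2187 to 28525 for Fcgr2b.

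Fcgrt (ENSMUSG00000003420, chromosome 7, 45092990 to 45103851, minus strand) encodes the heavy chain of FcRn, which binds IgG and albumin inside endosomes and returns them to the surface. Values were 8.73, 8.42, 11.1 and 11.2 in WT and 7.66, 8.08 and 4.74 in Ngfr KO. All Ngfr KO samples were below all WT samples, by a narrow gap, and Ngfr KO replicate 3 was the lowest. The log2 change was -0.49 (SE 0.20) and was not called (limma adjusted p = 0.0705). It was called after quantile normalization (-0.60, limma adjusted p = 0.0333) and after each library's trend with transcript length was removed (-0.73, limma adjusted p = 0.0127). It shrank to -0.28 without Ngfr KO replicate 3 and to -0.13 with the myeloid list as a covariate (limma adjusted p = 0.220 and 0.747). B2m, the light chain of FcRn, had means of 1053 ± 182 (WT) and 870 ± 188 (Ngfr KO) and was not called (limma adjusted p = 0.499).

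Fcer1g (ENSMUSG00000058715, chromosome 1, 171229572 to 171234365, minus strand) encodes the signalling chain shared by activating Fc receptors. Values were 0.930, 1.37, 0.104 and 1.18 in WT and 0.994, 0.923 and 2.73 in Ngfr KO. WT replicate 3 was low and Ngfr KO replicate 3 high, and the other samples of both groups lay within 1 narrow band. On the log2 scale the difference was 0.41 (SE 0.28, limma adjusted p = 0.266). It was 0.17 without WT replicate 3 and turned to -0.35 with the myeloid list as a covariate (limma adjusted p = 0.586 and 0.440). The same 2 libraries held the lowest and the highest Fcgr3 counts.

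Levels of different genes were compared per kilobase of merged exon sequence. In WT the order by mean was Cr2 (6.19 ± 2.62), Fcgrt (4.70 ± 0.71), Fcgr2b (2.92 ± 1.05), Cr1l (2.89 ± 0.50), Fcer2a (1.56 ± 0.88), Fcer1g (1.03 ± 0.64), Fcamr (0.505 ± 0.394) and Fcgr3 (0.0557 ± 0.0507), as values per kilobase. Neighbours in this order overlapped in their sample ranges, except that every WT value of Fcgrt (4.01 to 5.34) lay above every WT value of Fcgr2b (1.47 to 3.83). In Ngfr KO the order began with Fcer2a (15.03 ± 5.41), Fcgr2b (12.9 ± 3.4) and Cr2 (12.5 ± 1.1), whose ranges overlapped. Fcamr (7.17 ± 2.91) followed, with all its values below those of Cr2 and above those of Cr1l (3.32 ± 0.33). Fcgrt (3.25 ± 0.86) overlapped with Cr1l and with Fcer1g (1.77 ± 1.17). Fcgr3 (0.103 ± 0.117) was lowest, with all its values below those of Fcer1g. As a ratio of values per kilobase, Fcer2a per Fcgr2b was 0.267 to 0.693 among WT samples and 1.05 to 1.26 among Ngfr KO samples. Fcer2a per Cr2 was 0.120 to 0.359 and 0.781 to 1.79, in the same order.

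**Figure D3:**
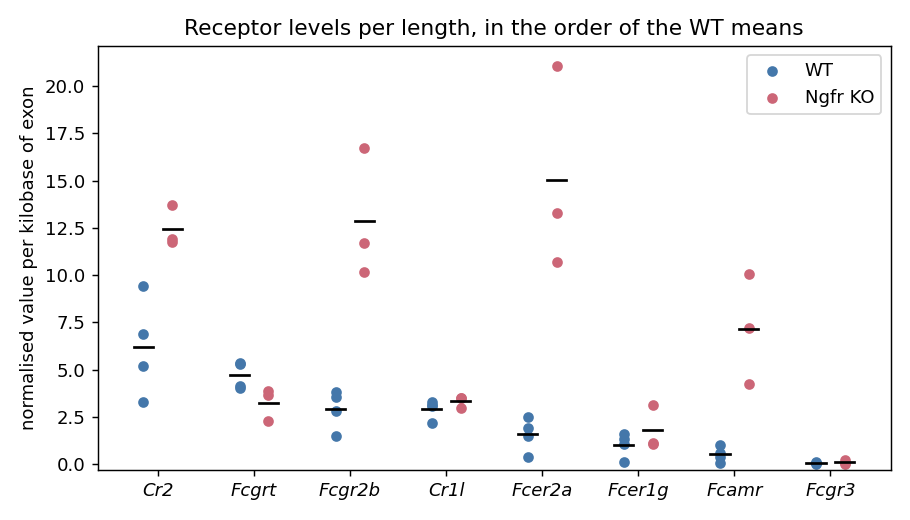
Normalised value per kilobase of merged exon sequence (vertical axis) of the 8 receptors, ordered by WT mean; points are samples (4 WT, 3 Ngfr KO) and dashes group means. Cr2 leads in WT at 3.26 to 9.44, and Fcer2a, Fcgr2b and Cr2 share the top in Ngfr KO at 10.2 to 21.1.

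Fcer2a, Fcgr2b and Fcamr also varied together among libraries of 1 genotype, and Cr2 less closely with them. WT replicate 1 was the lowest and replicate 4 the next lowest of the WT samples for Cr2, Fcer2a, Fcgr2b and Fcamr. The low level in WT replicate 1 was not particular to the receptors. The mean log2(value + 1) of the 18 FDC genes was 4.13, 4.88, 5.17 and 5.26 in WT replicates 1 to 4, thus highest in replicate 4. That of 11 endothelial genes was 3.95, 3.63, 3.79 and 3.34 in the same samples. In Ngfr KO, replicate 3 was the lowest and replicate 2 the highest for Fcer2a, Fcgr2b and Fcamr, while Cr2 was highest in replicate 3. After each genotype's mean was subtracted, the 3 pairs among Fcer2a, Fcgr2b and Fcamr had Pearson's r of 0.883 to 0.979 over the 7 samples, which share library and scaling factor. On the same measure Cr2 had r of 0.787 with Fcgr2b, 0.734 with Fcer2a and 0.516 with Fcamr. By Pearson's r of log2(value + 1) over 7 samples, Fcgr2b was the second most similar of all tested genes to Fcer2a (r = 0.997), after Metrnl, and Fcer2a was the most similar to Fcgr2b. Mvd, an enzyme of the mevalonate pathway, was among the 3 most similar genes of both. It passed the filter only through its Ngfr KO samples, with WT values of 0.226 to 0.682. The genes most like Fcamr were Tspan31, Pigu and Emc3 (r = 0.996 to 0.997), and those most like Cr2 were Slc35g1, Ube2d-ps and Bmp2k (r = 0.9755 to 0.991). Those most like Fcgrt were Fxyd6 and Ackr4, which were both called lower in Ngfr KO, and Acaa2, which was not called (limma adjusted p = 0.00904, 0.0166 and 0.191). Over the 21 pairs of a receptor and its like genes, r with genotype means subtracted was 0.937 to 0.990.

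The 250 bases before the transcription start are printed for 3 of the receptors that rose together, with RefSeq starts on GRCm38.p6. The window of Fcgr2b is not shown because 203 of its 250 bases are exon sequence of GENCODE transcripts. Capitals mark every match, on either strand, to 3 motifs. The first is TTC, any 4 bases and GAA (the STAT6 spacing; IL-4 induces CD23 in B cells through STAT6), the second GGG, any 5 bases and CC (a loose form of the NF-κB site), and the third TGGGAA (the core bound by RBPJ, the Notch partner). The windows are chr1:195176720-195176969 (minus strand) for Cr2, chr8:3694175-3694424 and chr8:3690862-3691111 (minus strand) for the first and the second start of Fcer2a, and chr1:130800652-130800901 (plus strand) for Fcamr.
Cr2: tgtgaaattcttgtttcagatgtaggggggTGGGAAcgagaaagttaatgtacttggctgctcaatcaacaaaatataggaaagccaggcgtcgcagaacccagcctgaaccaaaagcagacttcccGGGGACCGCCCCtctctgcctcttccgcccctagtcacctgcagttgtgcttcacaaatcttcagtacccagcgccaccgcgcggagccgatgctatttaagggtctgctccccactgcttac
Fcer2a, first start: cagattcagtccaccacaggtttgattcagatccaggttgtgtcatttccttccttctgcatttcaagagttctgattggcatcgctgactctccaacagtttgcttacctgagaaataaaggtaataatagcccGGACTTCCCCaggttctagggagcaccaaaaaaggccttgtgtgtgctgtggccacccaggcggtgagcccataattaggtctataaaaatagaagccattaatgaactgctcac
Fcer2a, second start: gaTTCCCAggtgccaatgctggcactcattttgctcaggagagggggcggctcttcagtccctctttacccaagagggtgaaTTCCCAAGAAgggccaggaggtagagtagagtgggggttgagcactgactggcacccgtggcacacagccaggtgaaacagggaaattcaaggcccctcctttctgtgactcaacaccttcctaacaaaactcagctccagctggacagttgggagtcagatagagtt
Fcamr: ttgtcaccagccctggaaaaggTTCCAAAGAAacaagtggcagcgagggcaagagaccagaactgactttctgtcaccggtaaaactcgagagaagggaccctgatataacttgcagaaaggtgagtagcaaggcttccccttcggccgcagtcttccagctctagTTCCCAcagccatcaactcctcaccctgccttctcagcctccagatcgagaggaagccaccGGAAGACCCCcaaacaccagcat
The STAT6-type motif occurred 168 bases before the second start of Fcer2a, where it overlaps a TGGGAA match on the minus strand, and 228 bases before the start of Fcamr. It was present in 5.85% of 32841 such windows, TGGGAA in 21.6% and the NF-κB-type motif in 45.8%. TGGGAA was found in the windows of Cr2, Fcamr and the second Fcer2a start, and also in that of another Fcer2a start, which is not printed. The NF-κB-type motif was found in those of Cr2, Fcamr, Fcgr2b and the first Fcer2a start, and likewise in those of Cr1l, Fcgr3 and Fcer1g, which were not called higher. A match describes the letters only, and no binding was measured.

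B-cell transcripts were present in every library. Per kilobase, Cd79a, part of the B-cell receptor, ranged from 2.39 to 4.42 among WT samples and from 2.28 to 6.87 among Ngfr KO samples. Ms4a1, which encodes CD20, ranged from 0.157 to 0.463 and from 0.310 to 0.928. The WT mean of Cd79a per kilobase (3.57) was above those of Fcgr2b, Cr1l and Fcer2a. Of 15 B-cell genes without immunoglobulins, 9 were tested, and 2 were called higher, Ms4a1 (log2 change 0.79, limma adjusted p = 0.0472) and Cd72 (0.95, limma adjusted p = 0.00777). The median log2 change of the 9 was 0.27, and the 15 genes, none at 0 in any library, summed to 26.1 to 38.2 per WT library and 34.2 to 54.6 per Ngfr KO library. Measured against the mean of that list in the same library, Fcer2a was higher in Ngfr KO by 2.84 and Fcgr2b by 1.83 on the log2(value + 1) scale. For both receptors the Ngfr KO samples all lay above the WT samples. Each comparison gave p = 0.0286 (exact permutation test, two-sided), which is the lowest that 35 splits allow, and 0.0571 after adjustment over 4 differences, so neither passed 0.05 once adjusted. Cr2 against the same list was higher by 0.80, its groups overlapped, and p was 0.143 (exact permutation test, 0.190 adjusted).

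Against the mean of the 18 FDC genes, a comparison chosen after the values were seen and given without a test, Cr2 stood 0.718 ± 0.509 above the list in WT and 0.386 ± 0.154 above it in Ngfr KO, as log2 differences. Fcer2a went from -2.48 ± 0.47 to -0.772 ± 0.468 on that scale. Fcamr went from -3.97 ± 0.38 to -2.48 ± 0.60 and Fcgr2b from -0.777 ± 0.333 to -0.0792 ± 0.345 against the list. Groups overlapped for Cr2 and Fcgr2b and were separate for Fcer2a and Fcamr. The median log2 change of the 18 FDC genes was 1.36, and the list was chosen with results of these samples known. How far the shift of the FDC, endothelial, reticular stroma and myeloid lists accounts for the receptors was not tested.

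**Figure D4:**
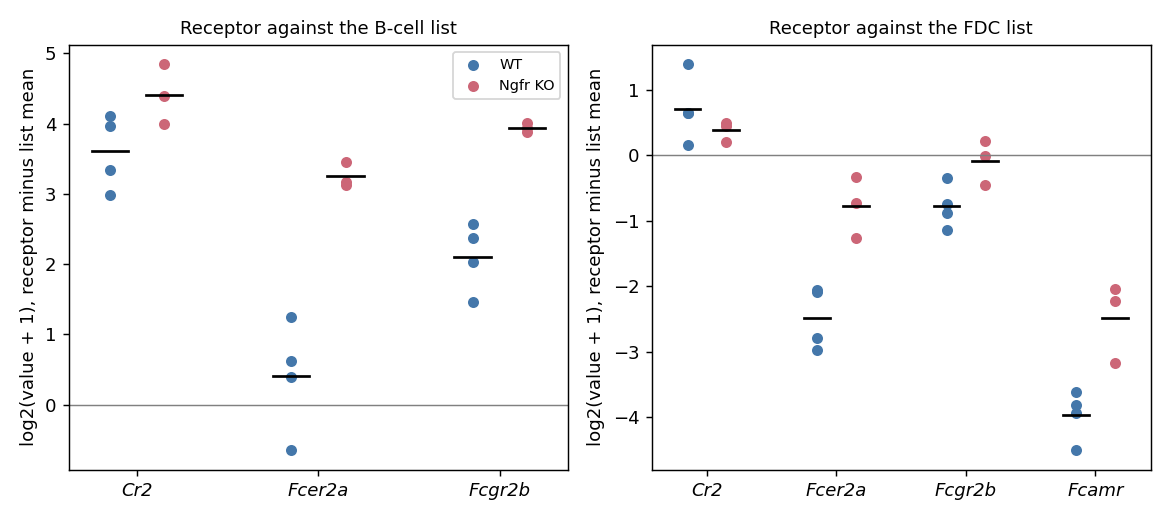
Difference of log2(value + 1) between a receptor and the mean of a gene list in the same library (vertical axes), for the B-cell list without immunoglobulins (left, 9 genes) and the FDC list (right, 18 genes); points are samples and dashes group means. Against the B-cell list Fcer2a and Fcgr2b are separate between genotypes, against the FDC list Fcer2a is separate and Fcgr2b overlaps, and Cr2 overlaps against both.

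Of 20 myeloid genes 8 were tested, and 3 were called higher (Lyz2, Cd14 and Laptm5) and 1 lower. Their median log2 change was 0.40, and their mean log2(value + 1) per library was 2.38 to 2.76 for WT and 2.81 to 2.95 for Ngfr KO, without overlap. The values of all listed myeloid genes summed to 66.5 to 129 per WT library and 73.8 to 103 per Ngfr KO library. Marco, a scavenger receptor, was the highest of them in WT (61.2 ± 27.4, against 24.8 ± 24.2 in Ngfr KO) and was not called (limma adjusted p = 0.0756). Of the 19 listed myeloid genes in the table, 7 were at 0 in at least 1 library. Among these, the macrophage-defining genes Adgre1 and C1qa were at 0 in at least 1 library of each genotype. Tyrobp had 0 reads in WT replicate 3, up to 784 in the other WT libraries and 305 to 1101 in the Ngfr KO libraries. Csf1r was present in every library, with 152 to 262 reads in WT and 67 to 247 in Ngfr KO. Myeloid RNA was therefore not absent from either genotype. Against the mean of the 8 myeloid genes, Fcer1g differed by 0.14 (exact permutation test, p = 0.686), and the sign turned without WT replicate 3 (-0.03) and without Ngfr KO replicate 3 (-0.14). Of 10 mast cell, basophil and natural killer genes 4 were in the table, with a summed value of at most 4.00. Their part in the Fcgr3 and Fcer1g counts was not tested.

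Other Fc receptors were mostly close to the limit of detection. Of 15 listed, 10 were in the table and 2 were tested, Fcmr and Trim21, and neither was called (limma adjusted p = 0.589 and 0.270). Fcrlb, an intracellular Fc receptor-like protein of germinal centre B cells, failed the filter on low values, with 0 to 18 reads per WT library and 66 to 148 per Ngfr KO library. It was called higher by edgeR (log2 change 3.57, adjusted p = 0.0404), by DESeq2 (adjusted p = 0.00140) and by limma without the filter (adjusted p = 0.0125). Pigr, a relative of Fcamr that carries IgA across epithelia, had a mean of at most 0.0468 in both groups. Of 12 other complement receptors, 3 were tested: Calr, a chaperone that also binds C1q, rose (log2 change 0.83, limma adjusted p = 0.0228), Cd93 fell by 1.14 (limma adjusted p = 0.00133) and C1qbp was not called. The C3 receptor chains Itgam and Itgax were too low to be tested. C5ar2 also failed the filter on low values, with 221 to 317 reads per WT library and 32 to 75 per Ngfr KO library. It was called lower by edgeR (log2 change -2.33, adjusted p = 0.00677), by DESeq2 (adjusted p = 2.98e-07) and by limma without the filter (adjusted p = 0.0180).

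Regulators of complement moved in both directions. Of 13 listed, 6 were tested, and 2 were called higher and 2 lower. Serping1, the inhibitor of C1r and C1s, rose from a mean of 9.82 ± 3.92 to 48.0 ± 6.1, by 2.24 on the log2 scale (limma adjusted p = 3.11e-04). Clu, a soluble regulator that is also on the FDC list, rose by 1.48. Cd59a, which blocks the membrane attack complex, fell by 1.55 on the log2 scale (limma adjusted p = 0.00115). Cd55, which breaks up C3 convertases, had means of 192 ± 56 (WT) and 112 ± 8 (Ngfr KO) and was not called (limma adjusted p = 0.0567).

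Among the components that lead to C3 deposition, 17 genes were listed and 8 were tested, and 4 were called, all higher: C1s1 (log2 change 1.34), Colec12 (1.21), C2 (0.71) and C1ra (0.60), for which limma gave adjusted p = 0.00190 to 0.0331. The groups of C1ra overlapped. C3 itself, the source of the fragments that Cr2 binds, had overlapping groups with means of 49.7 ± 10.9 (WT) and 39.0 ± 10.7 (Ngfr KO) and was not called (limma adjusted p = 0.279). C4b and Cfb were not called either (0.0882 and 0.102).

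Among partners of the receptors, Cd81 and Cd9, tetraspanins of which Cd81 joins CD21 in the B-cell co-receptor, were called higher, with log2 changes of 1.04 and 0.90 (limma adjusted p = 0.0122 and 0.0211). Adam10, which sheds CD23 from the cell surface, had means of 13.5 ± 2.9 (WT) and 12.1 ± 1.9 (Ngfr KO) and was not called (limma adjusted p = 0.594). In all, 8 of the 9 partner genes were tested, with 2 called higher and 1, Hcst, lower. Of 26 genes of Fc receptor signalling 10 were tested, with 3 called higher and 2 lower. The adaptor Blnk rose most, from 5.89 ± 2.38 to 23.8 ± 5.4 (log2 change 1.91, limma adjusted p = 9.60e-04). Of the phosphatases that act below inhibitory receptors, Ptpn6 was called higher (log2 change 0.69, limma adjusted p = 0.0248) and Inpp5d, the phosphatase that Fcgr2b recruits, fell by 0.75 (limma adjusted p = 0.0124). Plcg1 also fell, by 0.97 (limma adjusted p = 0.00151), and Lyn, the kinase that phosphorylates Fcgr2b, was not called (limma adjusted p = 0.174). The median log2 change was -0.01 for the tested genes of the other Fc receptors, 0.30 for the other complement receptors, -0.24 for the regulators, 0.65 for the components of C3 deposition, -0.21 for the partners and -0.08 for signalling, against 0.02 for all tested genes.

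**Figure D5:**
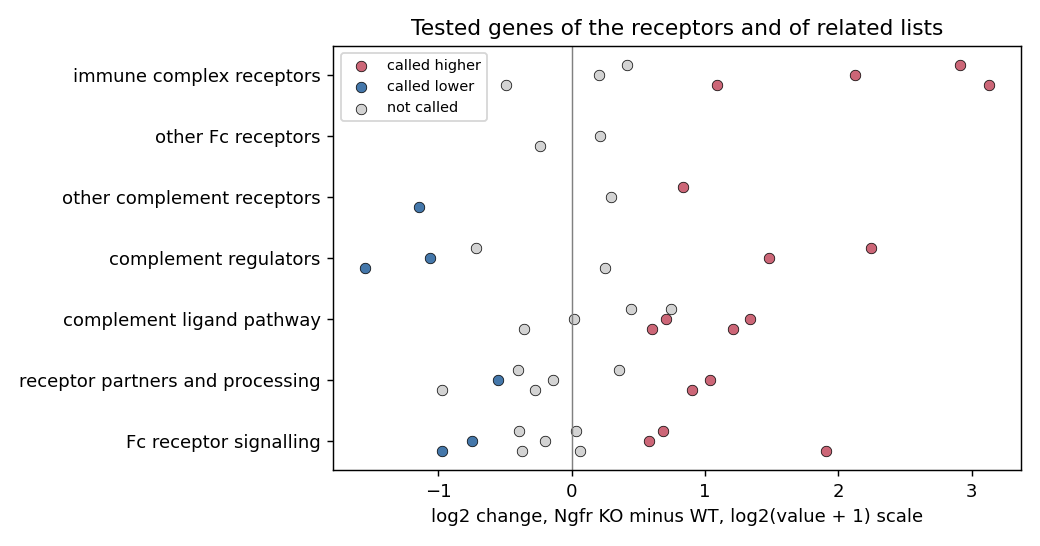
Log2 change, Ngfr KO minus WT (horizontal axis, log2(value + 1) scale), of each tested gene of the receptors and of 6 related lists; colours mark the limma call and vertical offsets only separate the points. The receptors that rose lie at 1.09 to 3.13, and in the related lists Serping1 reaches 2.24 and Cd59a -1.55.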

How the data were processed

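The authors deposited 1 table with a normalised signal per gene and sample, named for TMM (trimmed mean of M values). SMART-Seq v4 (amplification) and Nextera XT (libraries) were used, per the labels. The submitters' processing notes name bcl2fastq 2.20.0.422 and the mm10 build (GRCm38), and the aligner, counter and annotation are not given in the sources used here. In each sample, 100% of the values were whole multiples (within 0.1) of a single step, so reads were recovered by division. All value columns were used.

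Ngfr KO was compared with WT by limma 3.58.1 in R 4.3.3 (eBayes with trend) on log2(value + 1), over genes that reached 1 in 3 or more samples, with Benjamini-Hochberg adjustment over all of them. p-values measure the spread between pooled samples. edgeR 4.0.16 (quasi-likelihood test, with the SE implied by its F statistic) and DESeq2 1.42.0 were run on recovered reads. The members, the gene lists and the promoter motifs were chosen with earlier results of these data known; named genes are the members, list genes of high level or large change, and the 3 genes most correlated with a member, and others were chosen after their values were seen. Listed genes not in the table were not analysed here, and a few genes are counted in their lists but not reported by name. Lengths and coordinates are from GENCODE M21, which matched 21137 identifiers. On simulated reads with 200 changed genes, limma recovered 100% of 4-fold and 77% of 2-fold changes over 8165 genes, with 10 wrong calls among 187. The simulation gave every gene the same dispersion, kept low genes out of the changed set and changed far fewer genes than were called here. Among the called members the WT SD was 36.1% (Fcgr2b) to 78.0% (Fcamr) of the mean, so these rates need not hold for them.

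Alternatives were other pseudocounts (0.1 or 5), no filter, a stricter filter (at least 10), quantile and median ratio scaling, a replicate block, B-cell or myeloid list means as covariates, thinned reads, removal of the length trend, and leaving out each sample. No sample was dropped or imputed in the main comparison.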

Additional observations from a re-analysis of the deposited data

How the results depend on the processing

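All 20 alternatives kept the direction of Cr2, Cr1l, Fcer2a, Fcgr2b and Fcamr wherever these were tested, and Fcgrt was lower in all 19 that tested it. Fcer1g, which was not called in any, turned from 0.41 to -0.35 with the myeloid list as a covariate, and the cause was not tested. Called members numbered 3 to 5: 3 without a filter, with the stricter filter (which tested 4) and with either list mean as a covariate, and 5 with quantile normalization and with the length trend removed, where Fcgrt was added. DESeq2 and the fit on thinned reads each called 4. Cr2 lost its call in 3 fits, at log2 changes of 1.09, 0.93 and 1.15, and the cause was not tested. The number of all called genes was 2844 (1526 higher, 1318 lower). It was 535 with the stricter filter (359 higher, 176 lower), which tests 1297 genes, 1248 with the B-cell list as a covariate, and 1614 to 3006 when 1 sample was left out, with 1870 without WT replicate 1, 1803 without Ngfr KO replicate 1 and 1614 without Ngfr KO replicate 2. Members called stayed at 4 in each of the 7 fits without 1 sample, against 20.0% to 37.0% of all tested genes.

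Same-numbered samples did not deviate together for replicates 2 and 3 (Pearson's r across genes of -0.0593 and -0.0108). For replicate 1, r was 0.298, the highest of all pairs of a WT and an Ngfr KO sample, and the next was 0.111. The numbers were not taken as pairs, and whether the replicate 1 samples shared a source of variation was not tested. With the replicate block, 2717 genes (32.6% of those tested) and 4 members were called. Against the B-cell list, the mean of the same-numbered differences was 2.84 for Fcer2a and 1.81 for Fcgr2b, where the smallest exact p is 0.25. With 1 sample left out these differences were 2.49 to 3.12 and 1.62 to 1.99, and the smallest exact permutation p was 0.0667 or 0.1, so none could pass 0.05. Fcer1g against the myeloid list ranged from -0.14 to 0.31 with 1 sample left out, and was -0.03 without WT replicate 3 and -0.14 without Ngfr KO replicate 3. Depth limits Fcgr3 most, with 239 reads in all 7 libraries.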

Other observations

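The genes of 6 of the 8 receptors lie on chromosome 1, and the neighbours of all were read from the same fit, a choice made after the values were seen. Within 100 kb of Fcer2a, 6 protein-coding genes were tested. Of these, only Clec4g, a lectin of sinusoidal endothelium, was called, and it was lower (log2 change -1.47, limma adjusted p = 0.00305), with means of 4.97 ± 1.92 (SD, WT, n = 4) and 1.16 ± 0.75 (SD, Ngfr KO, n = 3). Trappc5, 482 bases from Fcer2a, was not called (log2 change 0.45, limma adjusted p = 0.0503). Around Fcamr, the tested neighbours Fcmr and Yod1 were not called, and around Fcgr2b neither Dusp12 nor Atf6 was. Fcrlb, 45.7 kb from Fcgr2b, was below the filter and was called higher by edgeR (log2 change 3.57, adjusted p = 0.0404). Near Fcer1g, which was not called itself, Pcp4l1 rose from 1.85 ± 0.74 to 6.06 ± 2.43 (log2 change 1.30, limma adjusted p = 0.00295).

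Susd4, a complement regulator, had no read in the 3 Ngfr KO libraries and 14 to 36 reads in each WT library (edgeR adjusted p = 0.0172). C1qb was likewise near 0 in Ngfr KO, at 0.00121 ± 0.00209 against 0.116 ± 0.070 in WT, with an edgeR adjusted p of 0.0274. It was also called by DESeq2 (adjusted p = 0.00123) but not by limma without the filter (adjusted p = 0.0791). WT replicate 4 had 3 reads of C1qb, and the groups overlapped for C1qa and C1qc. Susd4 and C1qb both lie below the filter of the main comparison.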
